A study of Drosophila melanogaster with 6 samples.

Results

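The epsilon class of cytosolic glutathione S-transferases was followed in nuclear RNA from *Drosophila melanogaster* eye discs. The 10 genes described here, *GstE1*, *GstE3*, *GstE6*, *GstE7*, *GstE8*, *GstE9*, *GstE11*, *GstE12*, *GstE13* and *GstE14*, were taken by symbol from the 17433 genes of the count table, and all 10 were found. The table holds 14 epsilon symbols in all. In the *GMR > Rh1G69D* samples, *GMR-GAL4* drove both *UAS-Rh-1G69D*, a misfolding mutant of the visual pigment Rhodopsin-1 that imposes stress on the endoplasmic reticulum, and EGFP::Msp300-KASH, a fluorescent tag on the nuclear envelope. The control samples, labelled WT, carried *GMR-GAL4* and the tag without the mutant rhodopsin. *GMR-GAL4* is active in cells behind the morphogenetic furrow, the front at which eye disc cells begin to differentiate, and tagged nuclei were pulled out of lysed eye-antennal discs from larvae late in the third instar with antibodies to EGFP. Each genotype had 3 samples, each made from the pooled discs of many larvae.

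Glutathione S-transferases join the thiol of glutathione to electrophilic compounds, which makes them more soluble and easier to export from the cell. The epsilon class is found in insects and, with the delta class, is best known for detoxifying insecticides and plant compounds. Several of its enzymes also conjugate 4-hydroxynonenal, a reactive aldehyde made when membrane lipids are oxidized. GstE14, called Noppera-bo, is an exception in its known role, since it is needed for ecdysteroid synthesis in the larval prothoracic gland.

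The libraries held between 21773452 and 30884519 counts on genes. RNA of *ninaE*, the gene of Rhodopsin-1, had 3840, 3987 and 5115 counts in *GMR > Rh1G69D* libraries, against 63, 1222 and 65 counts in control libraries, so that control replicate 2 stood above the other controls. All 7 markers of the posterior eye disc were detected, with summed levels of 4100 to 6690 CPM (counts of a gene divided by the TMM-normalized library size) in *GMR > Rh1G69D* libraries and 6190 to 8570 CPM in control libraries. In edgeR 4 of the 7 fell in *GMR > Rh1G69D* samples (6 of the 7 without control replicate 3). Of all genes tested 3.72% were called lower, and 1199 of 12206 without control replicate 3. Markers of other tissues were also present. The 5 larval fat body markers summed to 56.7, 8.98 and 23.9 CPM in *GMR > Rh1G69D* libraries, against 24.1, 34.1 and 680 CPM in control libraries. The 4 salivary gland markers summed to 1.33, 4.91 and 84.8 CPM in *GMR > Rh1G69D* libraries, against 292, 20.7 and 958 CPM in control libraries. In both lists edgeR, DESeq2 and limma called 0 genes, while 2 fat body and 4 salivary gland markers were lower at an unadjusted edgeR p under 0.05, and no marker was at 0 in all libraries. The lower values of the fat body markers rested on control replicate 3. Without it, 0 fat body markers and 1 salivary gland marker were lower at an unadjusted edgeR p under 0.05. After adjustment edgeR then called 1 fat body marker higher, *Lsp1alpha*, which had 0 counts in both remaining controls. The median log2 fold change of the fat body markers was 0.71 without that library, beside -2.36 with it. For the salivary gland markers the median was -2.24 without that library, beside -3.89 with it. Control replicate 3 had the highest summed level of both lists. In salivary gland markers control replicate 1 (292 CPM) was also above control replicate 2 (20.7 CPM). The fold changes and calls of the epsilon genes, and the calls and medians of the gene lists set beside them, are therefore given with and without control replicate 3. The other controls also stood out, control replicate 2 in *ninaE* and control replicate 1 in antennal disc markers. The 4 antennal disc markers summed to 3420, 1750 and 1360 CPM in control libraries, against 1170 to 1470 CPM in *GMR > Rh1G69D* libraries. Of these markers edgeR called 0, and *ss* and *hth* lower without control replicate 3. The 5 hemocyte markers summed to 207 to 247 CPM in *GMR > Rh1G69D* libraries, against 113 to 119 CPM in control libraries, and 1 of them, *Hml*, rose (log2 fold change 1.27, edgeR adjusted p 0.00263 by the Benjamini-Hochberg method), while without control replicate 3 edgeR called *Hml* and *Pxn*. Of all genes tested 1.24% were called higher with all libraries, and 10.7% without control replicate 3. The part of hemocyte RNA in the levels of the epsilon genes was not tested.

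The genotypes were compared with edgeR's quasi-likelihood test, and a gene was called changed at a Benjamini-Hochberg adjusted p under 0.05 among the 11818 genes tested. None of the 10 epsilon genes passed, a count of 0, while 1.24% of the genes tested were called higher and 3.72% were called lower. At an unadjusted p under 0.05, 5 of the 10 were higher in *GMR > Rh1G69D* samples, set beside 11.0% of all genes tested. DESeq2 called 2 of them higher, *GstE6* and *GstE13*, set beside 4.07% of the genes it tested. The limma test called 1 of them on each of the deposited scales tried, with 2.01% of all genes tested called higher on normalized counts (*GstE13*), 1.44% on FPKM with a pseudocount of 1 (*GstE6*) and 1.24% on FPKM with a pseudocount of 0.1 (*GstE6*). Without control replicate 3, edgeR called 5 of them higher, *GstE1*, *GstE3*, *GstE11*, *GstE12* and *GstE13*, but 10.7% of all genes tested were then called higher as well.

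The log2 fold change between *GMR > Rh1G69D* and control samples was above 0 for 9 of the 10 genes, as it was for 52.5% of all genes tested. Its median over the 10 genes was 1.20, beside 0.04 over all genes tested. In 6 of the 10, all *GMR > Rh1G69D* libraries lay above all control libraries, a pattern that 13.6% of all genes tested had. *GstE3*, *GstE6*, *GstE7* and *GstE8* reached the minimum count for testing in every *GMR > Rh1G69D* library but in only 1 or 2 control libraries, so these counts and the median are not support for a change of the class. In RNA from pooled nuclei such as these, a different share of nuclei of a type and a different amount of RNA per nucleus cannot be told apart.

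**Figure D1:**
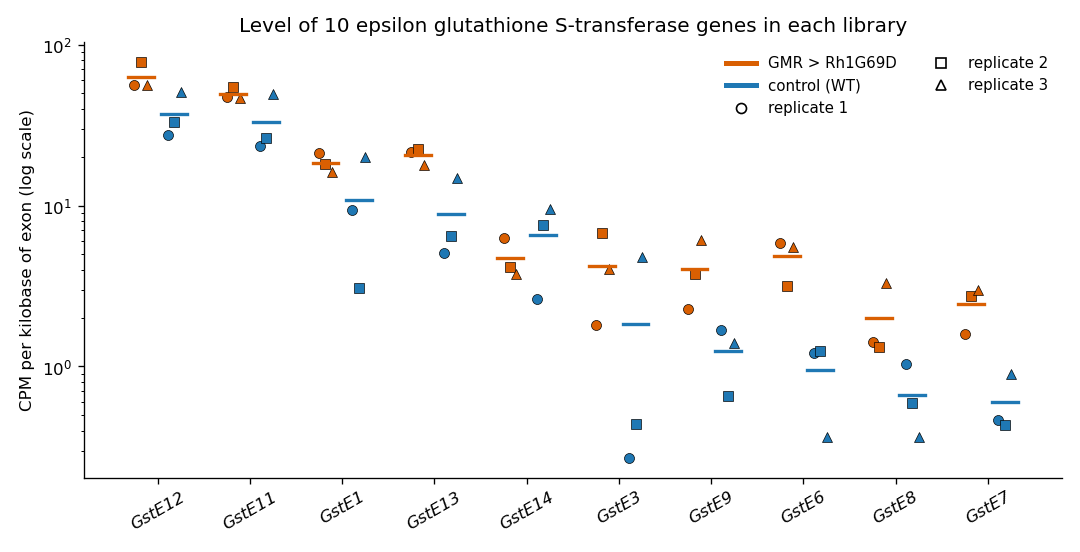
Level of each of the 10 epsilon genes in every library, in CPM per kilobase of exon on a log axis, with *GMR > Rh1G69D* libraries left of control libraries, a symbol for each replicate and a bar at each mean. The groups lie apart for *GstE6*, *GstE7*, *GstE8*, *GstE9*, *GstE12* and *GstE13*, and overlap for *GstE1*, *GstE3*, *GstE11* and *GstE14*.

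Of the 10 genes, 6 lie in a cluster on chromosome arm 2R, which spans 13198 bp from position 18396638 to 18409835 of the dm6 assembly and holds 10 epsilon genes. Each of these 6 is annotated with a single exon block. Clustered epsilon genes are close paralogs, and how reads shared between paralogs were counted is not given in the sources used here, so their separate levels are uncertain to that extent. The 4 neighbours at one end of the cluster, *GstE6*, *GstE7*, *GstE8* and *GstE9*, had the highest edgeR log2 fold changes of the 10 with all libraries, between 1.60 and 2.36. Of these, *GstE6*, *GstE7* and *GstE8* reached the minimum count for testing in only 1 or 2 control libraries. Their rank is therefore not support for a change at that end. That order did not hold in every alternative. Without control replicate 3 *GstE3* was the highest at 3.52, *GstE13* (1.83) was above *GstE9* (1.81), and *GstE1* (1.59) was above *GstE8* (1.31). Without *GMR > Rh1G69D* replicate 3, *GstE13* (1.33) was above *GstE9* (1.29) and *GstE8* (1.06). In limma on normalized counts with all libraries, *GstE3* (2.01) was above *GstE7* (1.94).

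*GstE6* (FBgn0063494, 18406011 to 18406761) had 4.41, 2.37 and 4.16 CPM in *GMR > Rh1G69D* libraries, from 116, 54 and 97 counts, against 0.916, 0.937 and 0.273 CPM in control libraries, from 18, 31 and 8 counts. All *GMR > Rh1G69D* libraries were above all controls, and replicate 3 was the lowest control. The mean was 3.65 ± 1.12 CPM in *GMR > Rh1G69D* samples and 0.709 ± 0.377 CPM in control samples (SD, n = 3 each). On the log2 scale the fold change was 2.36 (SE 0.71, 95% confidence interval 0.83 to 3.89), a 5.14-fold difference. With an edgeR adjusted p of 0.0756 by the Benjamini-Hochberg method it did not pass the threshold. This gene had the lowest adjusted p of the 10, and 0.685% of all genes tested had a larger log2 fold change. It reached the minimum count for testing in only 2 control libraries, so that rank is not support for a change. DESeq2 gave an adjusted p of 0.00852 for *GstE6*, and limma on FPKM gave 0.0346 with a pseudocount of 1.

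*GstE7* (FBgn0063493, 18406924 to 18407688) had 1.22, 2.10 and 2.27 CPM in *GMR > Rh1G69D* libraries, from 32, 48 and 53 counts, against 0.356, 0.333 and 0.683 CPM in control libraries, from 7, 11 and 20 counts. The groups did not overlap, and the highest control was replicate 3. Its log2 fold change was 2.01 (SE 0.77), with an edgeR adjusted p of 0.143 by the Benjamini-Hochberg method.

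*GstE8* (FBgn0063492, 18407834 to 18408955) had 1.60, 1.49 and 3.69 CPM in *GMR > Rh1G69D* libraries, from 42, 34 and 86 counts, against 1.17, 0.665 and 0.410 CPM in control libraries, from 23, 22 and 12 counts. The groups did not overlap, although *GMR > Rh1G69D* replicates 1 and 2 were close to control replicate 1. The fitted log2 fold change was 1.60 (SE 0.77, 95% confidence interval -0.06 to 3.26), with an edgeR adjusted p of 0.227 by the Benjamini-Hochberg method. Without *GMR > Rh1G69D* replicate 3, its highest library, the log2 fold change was 1.06.

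*GstE9* (FBgn0063491, 18409048 to 18409835) had 1.79, 2.94 and 4.81 CPM in *GMR > Rh1G69D* libraries, from 47, 67 and 112 counts, against 1.32, 0.514 and 1.09 CPM in control libraries, from 26, 17 and 32 counts. The groups did not overlap, and *GMR > Rh1G69D* replicate 3 was again the highest library. The log2 fold change was 1.70 (SE 0.70), with an edgeR adjusted p of 0.164 by the Benjamini-Hochberg method. The annotation of *GstE9* overlaps that of *imd*, an adaptor of the innate immune response on the other strand, by 40 bp. The strand setting of the counting is not given in the sources used here, so reads from that overlap could not be assigned. The log2 fold change of *imd* itself was 0.42, with an edgeR adjusted p of 0.515 by the Benjamini-Hochberg method.

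*GstE1* (FBgn0034335, 18398393 to 18399223), whose enzyme conjugates 4-hydroxynonenal, was the most abundant of the clustered genes described. It had 17.6, 15.2 and 13.3 CPM in *GMR > Rh1G69D* libraries, against 7.79, 2.54 and 16.6 CPM in control libraries. The groups overlapped through control replicate 3 alone, which was above *GMR > Rh1G69D* replicates 2 and 3. The log2 fold change was 0.78 (SE 0.51), with an edgeR adjusted p of 0.374 by the Benjamini-Hochberg method. It was 1.59, with an adjusted p of 0.0345, without control replicate 3. Without control replicate 2, the lowest control, it was 0.34.

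*GstE3* (FBgn0063497, 18400713 to 18401467) had 1.37, 5.08 and 3.05 CPM in *GMR > Rh1G69D* libraries, from 36, 116 and 71 counts, against 0.204, 0.333 and 3.62 CPM in control libraries, from 4, 11 and 106 counts. Control replicate 3 was 13.5 times the mean of the other controls and lay within the range of the *GMR > Rh1G69D* libraries. The log2 fold change was 1.18 (SE 0.96), with an edgeR adjusted p of 0.479 by the Benjamini-Hochberg method. With single libraries left out it ranged between 0.66 and 3.52. The highest value, with an edgeR adjusted p of 0.0261, came without control replicate 3. Fat body and salivary gland markers were also at their highest in that library, and their part in the levels of *GstE1* and *GstE3* was not tested.

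The cluster also holds 4 epsilon genes outside the list. *GstE2* had 82, 40 and 71 counts in *GMR > Rh1G69D* libraries, against 35, 36 and 57 counts in control libraries. *GstE5* had 13, 39 and 41 counts in *GMR > Rh1G69D* libraries, against 45, 95 and 24 counts in control libraries. Both overlapped between the genotypes, with log2 fold changes of 0.72 and -0.59 and edgeR adjusted p-values of 0.511 and 0.667 by the Benjamini-Hochberg method. *GstE4*, at 2 to 11 counts in *GMR > Rh1G69D* libraries and 4 to 19 counts in control libraries, was too low to test. *GstE10*, which overlaps *GstE1* by 20 bp on the other strand, had 0 counts in all 6 libraries. A count of 0 allows up to 3 counts in a library, which came to between 0.0907 and 0.153 CPM. Of the genes flanking the cluster, *Dp1* had a log2 fold change of 0.15 (adjusted p 0.715), and *Idgf5* had too few counts to test.

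**Figure D2:**
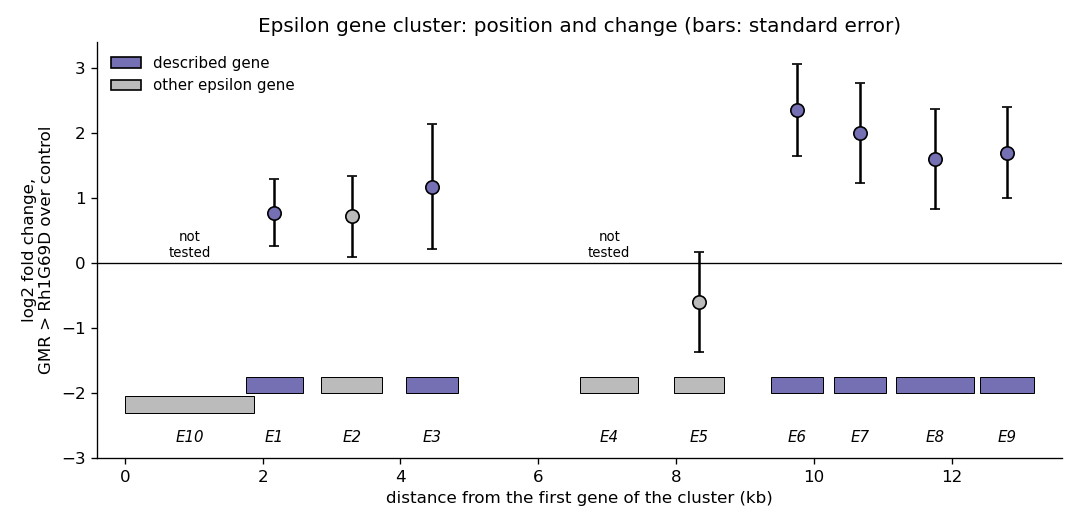
Log2 fold change of the epsilon genes of the cluster, *GMR > Rh1G69D* over control, in their order along the chromosome arm, with bars of 1 standard error and the gene boxes drawn to scale below (described genes in colour, other epsilon genes in grey). *GstE6* to *GstE9* lie at 1.60 to 2.36 at one end, while *GstE5* beside them lies at -0.59. *GstE6*, *GstE7* and *GstE8* reached the minimum count for testing in only 1 or 2 control libraries, so the pattern is not support for a change.

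The other 4 genes lie elsewhere on 2R and included the most abundant of the class. Per kilobase of exon, the scale on which genes can be compared, *GstE12* had a mean level of 63.3 CPM per kb in *GMR > Rh1G69D* samples and 37.2 CPM per kb in control samples, the highest of the 10 in both genotypes. *GstE11* followed with 49.6 CPM per kb in *GMR > Rh1G69D* samples and 33.1 CPM per kb in control samples. Together these genes made up 62.5%, 67.9% and 63.2% of the summed CPM per kb of the 10 genes in *GMR > Rh1G69D* libraries, against 70.1%, 74.4% and 65.9% in control libraries, and the groups overlapped.

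*GstE12* (FBgn0027590, 24766718 to 24768172) had 78.3, 109 and 78.3 CPM in *GMR > Rh1G69D* libraries, against 38.5, 46.1 and 71.2 CPM in control libraries. The groups did not overlap, but control replicate 3 came close to *GMR > Rh1G69D* replicates 1 and 3. The mean was 88.4 ± 17.5 CPM in *GMR > Rh1G69D* samples and 52.0 ± 17.1 CPM in control samples (SD, n = 3 each). *GstE12* had a log2 fold change of 0.77 (SE 0.25, 95% confidence interval 0.22 to 1.32), with an edgeR adjusted p of 0.102 by the Benjamini-Hochberg method. Without control replicate 3 it was 1.07, with an adjusted p of 0.00835. It ranged between 0.59 and 1.07 when single libraries were left out. The annotation overlaps *CG3894* by 33 bp, and the log2 fold change of *CG3894* was -0.02.

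*GstE11* (FBgn0034354, 18503608 to 18505025) lies 93772 bp beyond the end of the cluster and is annotated with 3 exon blocks. It had 44.8, 51.7 and 43.9 CPM in *GMR > Rh1G69D* libraries, against 22.1, 24.9 and 46.6 CPM in control libraries. Control replicate 3 was above *GMR > Rh1G69D* replicates 1 and 3, whereas the other controls were below every *GMR > Rh1G69D* library. Its log2 fold change was 0.58 (SE 0.28), with an edgeR adjusted p of 0.236 by the Benjamini-Hochberg method. Without control replicate 3 it was 1.00, with an adjusted p of 0.0115. It ranged between 0.39 and 1.00 when single libraries were left out.

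*GstE13* (FBgn0033381, 9122125 to 9123309) had 22.9, 23.9 and 18.9 CPM in *GMR > Rh1G69D* libraries, against 5.40, 6.89 and 15.7 CPM in control libraries. The groups did not overlap, and control replicate 3 was the nearest to the *GMR > Rh1G69D* libraries. The mean was 21.9 ± 2.63 CPM in *GMR > Rh1G69D* samples and 9.34 ± 5.58 CPM in control samples (SD, n = 3 each). *GstE13* had a log2 fold change of 1.23 (SE 0.38, 95% confidence interval 0.39 to 2.06), a 2.34-fold difference with an edgeR adjusted p of 0.0869 by the Benjamini-Hochberg method. DESeq2 gave an adjusted p of 0.0208, and limma on the deposited normalized counts gave 0.0461. Without control replicate 3 the log2 fold change was 1.83, with an edgeR adjusted p of 0.00334. It ranged between 0.96 and 1.83 when single libraries were left out. The annotation overlaps *CG18659* by 6 bp, and the log2 fold change of *CG18659* was -0.48.

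*GstE14* (FBgn0033817, 13239729 to 13241013), the gene of ecdysteroid synthesis, was the only one of the 10 with a log2 fold change below 0. It had 6.35, 4.21 and 3.78 CPM in *GMR > Rh1G69D* libraries, against 2.65, 7.59 and 9.57 CPM in control libraries. The groups overlapped, since control replicate 1 was the lowest library of all. Its log2 fold change was -0.47 (SE 0.51, 95% confidence interval -1.58 to 0.64), with an edgeR adjusted p of 0.603 by the Benjamini-Hochberg method. It ranged between -0.84 and -0.10 when single libraries were left out. The summed level of 5 prothoracic gland markers was 156 to 179 CPM in *GMR > Rh1G69D* libraries and 126 to 170 CPM in control libraries.

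**Figure D3:**
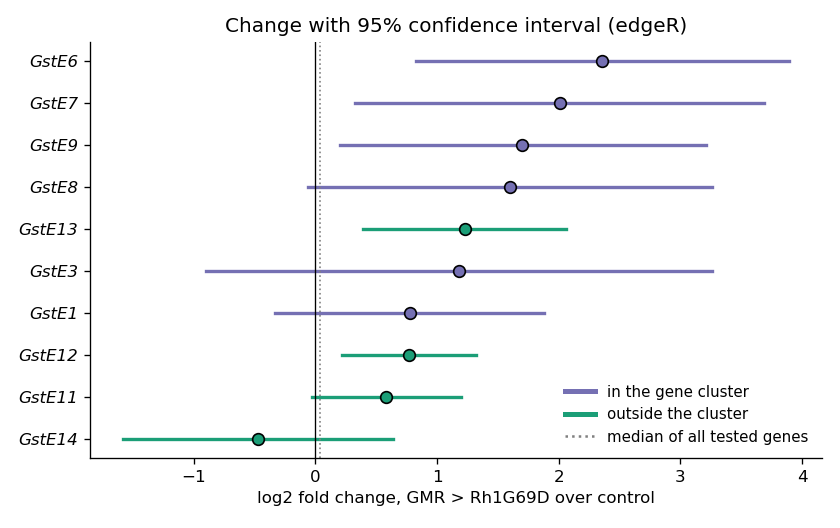
Log2 fold change of each of the 10 epsilon genes, *GMR > Rh1G69D* over control, with 95% confidence intervals from edgeR, coloured by place in or outside the cluster, and a dotted line at the median of all genes tested. All but *GstE14*, at -0.47, lie above 0, and the intervals are widest for *GstE3* and the low genes *GstE6* to *GstE9*.

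Summed per kilobase, the 10 genes came to 165, 195 and 162 CPM per kb in *GMR > Rh1G69D* libraries, against 72.7, 79.9 and 152 CPM per kb in control libraries. All *GMR > Rh1G69D* libraries were above all controls, and control replicate 3 was near the lowest of them. The mean sum was 174 ± 18.2 CPM per kb in *GMR > Rh1G69D* samples and 102 ± 44.1 CPM per kb in control samples (SD, n = 3 each), a ratio of 1.71 that became 2.28 without control replicate 3. No test was run on the sum, and an exact permutation test of 3 samples against 3 could not give a two-sided p under 0.1.

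In *GMR > Rh1G69D* samples the order of mean levels per kilobase was *GstE12*, *GstE11*, *GstE13* (20.6 CPM per kb), *GstE1* (18.5), *GstE6* (4.86), *GstE14* (4.74), *GstE3* (4.19), *GstE9* (4.03), *GstE7* (2.44) and *GstE8* (2.01). Neighbours in this order lay apart in their libraries at 3 steps, between *GstE12* and *GstE11*, between *GstE11* and *GstE13*, and between *GstE1* and *GstE6*. In control samples the order was *GstE12*, *GstE11*, *GstE1* (10.8 CPM per kb), *GstE13* (8.80), *GstE14* (6.55), *GstE3* (1.84), *GstE9* (1.24), *GstE6* (0.944), *GstE8* (0.667) and *GstE7* (0.598). Only *GstE11* and *GstE1* lay apart there, and all other neighbours overlapped.

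Control replicate 3 was the highest control library for 7 of the 10 genes, *GstE1*, *GstE3*, *GstE7*, *GstE11*, *GstE12*, *GstE13* and *GstE14*, a position it held for 38.5% of all genes tested. For *GstE6* and *GstE8* it was the lowest control library. The median log2 fold change of the 10 genes was 1.70 without it. That median was 0.82 without control replicate 1 and 0.89 without control replicate 2. In those fits edgeR called 0 of the 10 genes, and 56 of 12223 and 54 of 12119 genes tested were called higher. With control replicate 3 left out, *GstE6* had a log2 fold change of 1.97, *GstE7* of 2.43, *GstE8* of 1.31, *GstE9* of 1.81 and *GstE14* of -0.10. Their edgeR adjusted p-values were between 0.0726 and 0.921 by the Benjamini-Hochberg method.

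**Figure D4:**
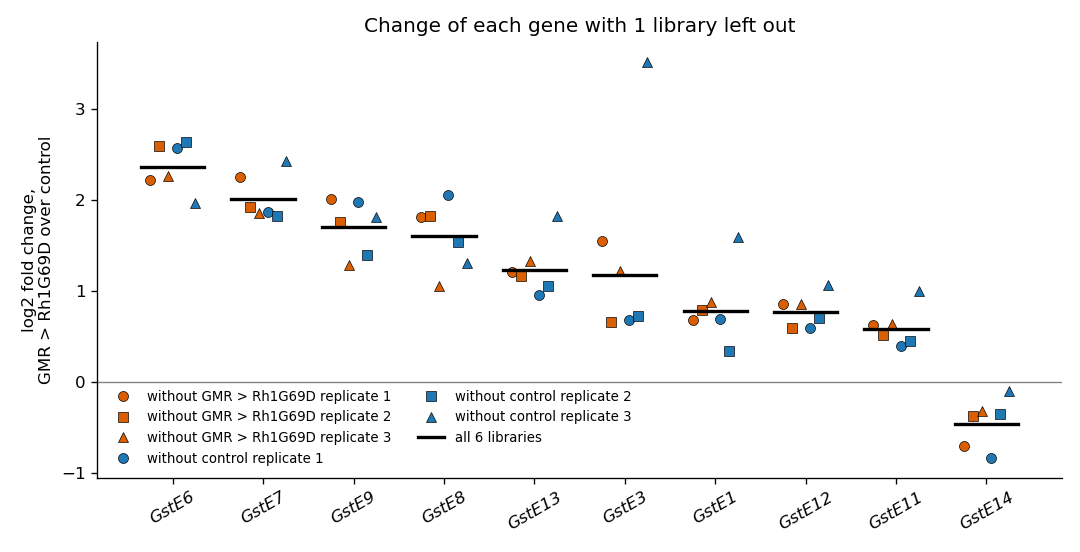
Log2 fold change of each of the 10 epsilon genes, *GMR > Rh1G69D* over control, with all libraries (bar) and with each library left out in turn (symbols). Leaving out control replicate 3 moved *GstE3* to 3.52 and *GstE1* to 1.59, and it lowered *GstE6* to 1.97 and *GstE8* to 1.31.

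**Figure D5:**
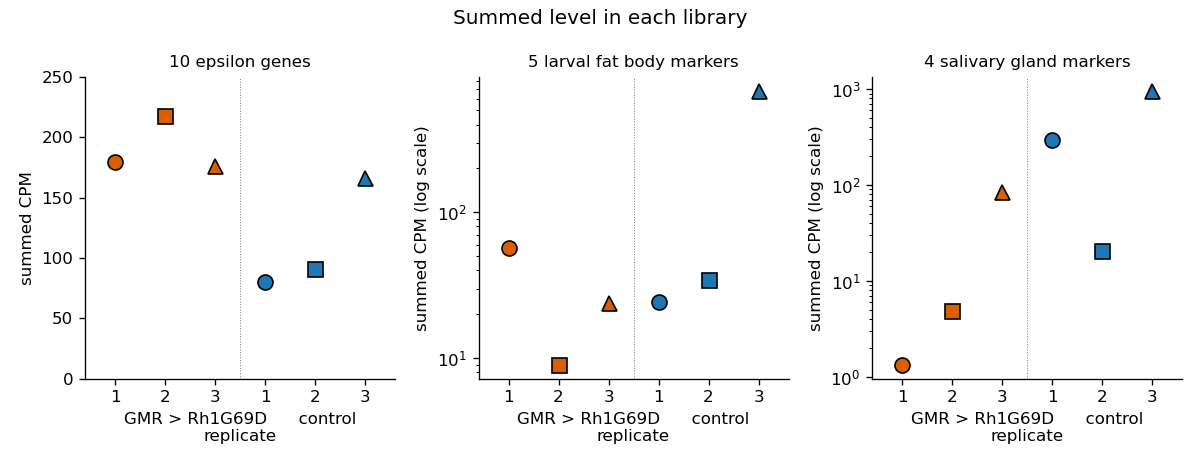
Summed level in every library of the 10 epsilon genes (left, CPM on a linear axis), 5 larval fat body markers (middle, CPM on a log axis) and 4 salivary gland markers (right, CPM on a log axis), with *GMR > Rh1G69D* libraries left of control libraries. Control replicate 3 is the highest library for fat body markers, at 680 CPM, and for salivary gland markers, at 958 CPM, and the highest control for the epsilon genes, at 166 CPM.

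Other genes that use or make glutathione were set beside the epsilon class. Of the 11 delta genes, the class closest to epsilon in known function, 8 had enough counts to test and 3 rose in *GMR > Rh1G69D* samples. *GstD1* had 8129, 8148 and 7739 counts in *GMR > Rh1G69D* libraries, against 28, 22 and 43 counts in control libraries, with a log2 fold change of 8.15 (SE 0.32) and an edgeR adjusted p of 3.59e-08 by the Benjamini-Hochberg method. *GstD3* and *GstD10* had log2 fold changes of 3.79 and 3.66, with adjusted p-values of 3.53e-04 and 0.00297. The fold change of *GstD1* was larger than that of any epsilon gene, and whether the classes differ was not tested. The median over the 8 delta genes was 1.83 on the log2 scale. It was 2.43 without control replicate 3 over the same 8 genes, and edgeR called *GstD9* as well, making 4 delta genes higher. Of all genes tested 1.24% were called higher with all libraries, and 10.7% without that control.

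Of the 11 sigma, omega, theta and zeta genes tested, edgeR called 0, 1 was higher and 1 lower at an unadjusted p under 0.05, DESeq2 called 1 and limma called 0. Their median log2 fold change was 0.19, and the largest in size was that of *GstT2*, at -0.96 (edgeR adjusted p 0.0759). Their median was 0.36 without control replicate 3, and edgeR called *GstS1*, *GstO2* and *GstO3* higher and *GstT2* lower. Of 12 genes tested for the synthesis and use of glutathione, edgeR and limma called 0 and DESeq2 called 1, while 2 were higher and 1 lower at an unadjusted p under 0.05. Their median was 0.50, and the largest was that of *Ggt-1*, a gamma-glutamyl transpeptidase that breaks glutathione down, at 0.95 (edgeR adjusted p 0.300). Their median was 0.79 without control replicate 3, and edgeR called *Eip55E*, *Cbs*, *PHGPx* and *Trxr-1* higher and *MRP* lower. These calls stand beside the 10.7% of all genes tested that were then called higher and the 1199 of 12206 called lower. The genes were named after their values were seen.

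For the 3 genes of the Nrf2 pathway, which controls many glutathione S-transferase genes in flies, the median log2 fold change was 0.02. The largest was that of *maf-S*, at 0.52 (edgeR adjusted p 0.371), and 0 of the 3 were called by edgeR, DESeq2 or limma, or passed an unadjusted p of 0.05. The 10 ecdysteroid synthesis genes, which work in the same pathway as *GstE14*, had a median of -0.09. The largest in size was that of *shd*, which makes 20-hydroxyecdysone, at -1.15 (edgeR adjusted p 0.233), and 0 of the 10 were called by edgeR, DESeq2 or limma, while 1 was lower at an unadjusted p under 0.05. When control replicate 3 was left out, edgeR called 0 genes of either list, 1 gene of each was higher and 1 lower at an unadjusted p under 0.05, and the medians were -0.03 for the Nrf2 pathway and 0.10 for ecdysteroid synthesis, both of the other sign than with it.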

How the data were processed

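Nuclear RNA was sequenced from 3 *GMR > Rh1G69D* and 3 control samples as paired-end reads of 50 bp. The authors aligned reads to dm6 with STAR (2.6.1d) and counted them per gene with featureCounts (Subread 1.6.3), and these counts were deposited as raw whole numbers per gene. The authors also deposited normalized counts, a signal in which each count is divided by a size factor of its sample, and FPKM. Both were used for alternatives. The annotation release, the strand setting and the treatment of reads that fit several genes are not given in the sources used here.

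The comparison of genotypes used edgeR 4.0.16 under R 4.3.3 (TMM normalization, filterByExpr, quasi-likelihood F test, Benjamini-Hochberg adjustment over 11818 genes). Standard errors were taken from the log2 fold change and the F statistic. Levels per kilobase used the gene lengths implied by the deposited FPKM. Gene positions came from the reference annotation in dm6 coordinates. All 10 members were named, with the genes of each other list past the threshold or, where there were none, the one with the largest absolute log2 fold change. *GstD1* and *ninaE*, other epsilon genes and the neighbours of members were named where a result turned on them. The members and lists were chosen with earlier results of these data known. The pipeline was run on simulated data with the same dispersion for every gene. Changes were set only in genes of higher level than *GstE3* and *GstE6* to *GstE9*, so that run does not cover these genes.

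Alternatives were DESeq2 1.42.0, limma 3.58.1 on log2 normalized counts (pseudocount 1) and on log2 FPKM (pseudocounts 1 and 0.1), RLE normalization, no filter, at least 10 counts in every sample, robust dispersion, a replicate block and each library left out. The samples were pools of different larvae, so p-values measure the spread between these pools. Errors cover that spread and not errors of mapping.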

Additional observations from a re-analysis of the deposited data

How the results depend on the processing

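The count of epsilon genes called was 0 with edgeR, and 2 with DESeq2, 1 with limma on normalized counts, 1 with limma on FPKM at a pseudocount of 1, 1 at a pseudocount of 0.1, and 5 at an unadjusted p under 0.05. It ranged between 0 and 5 when single libraries were left out, with 5 only without control replicate 3. Over all genes tested, 586 were called with edgeR (146 higher and 440 lower), 1464 with DESeq2, 357 with limma on FPKM at a pseudocount of 0.1 and 181 at an adjusted p under 0.01. That count ranged between 181 and 2504 when single libraries were left out. With limma on FPKM at a pseudocount of 1, 170 were higher and 233 lower. The 3 called genes of the other glutathione and ecdysteroid lists, all of the delta class, became 5 with DESeq2 and 3 to 13 with single libraries left out. The ratio of summed epsilon levels per kilobase, 1.71, ranged between 1.50 and 2.28 in the same way. No epsilon gene changed the sign of its log2 fold change under any alternative run. Requiring 10 counts in all samples gave no value for *GstE3*, *GstE6* and *GstE7*. Same-numbered samples of the genotypes had correlations of deviations of -0.002, 0.074 and 0.162. Those of differently numbered samples lay between -0.12 and 0.036. Whether the numbers pair the samples was not tested. With the replicate block, 734 genes and 0 epsilon genes were called. Among the 10 genes, *GstE3* and *GstE6* to *GstE9* had the lowest mean CPM in both genotypes, and their confidence intervals are the widest of the 10. The control counts of *GstE3* were 4, 11 and 106. Whether low counts or spread between the pools widened these intervals was not tested.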
